A study of Mus musculus with 8 samples.

Results

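Gm28653, Dubr, Neat1, Malat1 and Gas5 are long noncoding RNAs, transcripts that are not translated into protein. Their levels were compared between dystrophic and healthy mouse muscle. These 5 genes are rows of a table of 55401 genes, 13125 of which are annotated as long noncoding RNA genes. They were picked by symbol with the difference between dystrophic and wild-type muscle already known, so their levels and fold changes are a description, no p-value is given for them, and their calls are counted once with nothing read from the count.

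RNA came from the tibialis anterior (TA), a fast leg muscle, of male mice aged 6 months. The wild-type (WT) group held 4 muscles of the C57/Bl6 strain, and the mdx5cv group held 4 muscles of mice on that background which carry a point mutation in Dmd, the gene of dystrophin. The mdx5cv mouse is a model of Duchenne muscular dystrophy in which muscle fibers degenerate and regenerate throughout life. The limb muscles of this mouse keep regenerating well, which sets it apart from patient muscle. Whole muscle was extracted, so fewer cells of a type and less RNA per cell cannot be told apart. The labels do not say whether each muscle came from a different mouse, and the p-values below measure the spread between these samples only.

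Long noncoding RNAs act in several ways. Some host small RNAs in their introns or exons, some hold proteins together in nuclear bodies, and some bind microRNAs or chromatin factors. Gm28653 lies at the locus of linc-MD1, a cytoplasmic RNA of differentiating myoblasts that is known to bind miR-133 and miR-135 and so to spare the mRNAs of Maml1 and Mef2c. Dubr, also called Dum, is known to be activated by MyoD and to recruit DNA methyltransferases to Dppa2 during myoblast differentiation. Neat1 is the scaffold of paraspeckles, and Malat1 is concentrated in nuclear speckles, where splicing factors are stored. Gas5 hosts small nucleolar RNAs (snoRNAs) in its introns, and its spliced form is known to be degraded by nonsense-mediated decay and to bind the glucocorticoid receptor.

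In the GRCm38 build, Gm28653 (ENSMUSG00000099906) spans chr1:20669882-20684298 on the plus strand and has 3 merged exons. RefSeq lists a gene with the same start as Lincmd1. The hairpins of Mir206 and Mir133b, which give rise to muscle microRNAs, lie inside it on the same strand. Their mature sequences from RefSeq are shown because linc-MD1 is defined by hosting them, with the seed (bases 2 to 8) in capitals. No seed is shared between them.
mmu-miR-206-3p: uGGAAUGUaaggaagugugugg
mmu-miR-206-5p: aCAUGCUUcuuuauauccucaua
mmu-miR-133b-3p: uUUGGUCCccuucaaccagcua
mmu-miR-133b-5p: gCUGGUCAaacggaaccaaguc

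Promoters were taken from RefSeq (GRCm38.p6) as 250 bases before and 50 bases after each start, and 4 of the 5 genes matched an entry. Those printed here are the promoters of the muscle RNA with the largest change, of the most abundant of the 5 per kilobase and of the second RNA named for its role in myoblasts. Capitals mark the E-box CAGCTG, a site type bound by MyoD and myogenin, and the MEF2 motif, each searched on both strands. The Lincmd1 promoter is chr1:20669632-20669931 on the plus strand, the Malat1 promoter is chr19:5802623-5802922 on the minus strand, and the Dubr promoter is chr16:50732724-50733023 on the minus strand.
Lincmd1 (Gm28653): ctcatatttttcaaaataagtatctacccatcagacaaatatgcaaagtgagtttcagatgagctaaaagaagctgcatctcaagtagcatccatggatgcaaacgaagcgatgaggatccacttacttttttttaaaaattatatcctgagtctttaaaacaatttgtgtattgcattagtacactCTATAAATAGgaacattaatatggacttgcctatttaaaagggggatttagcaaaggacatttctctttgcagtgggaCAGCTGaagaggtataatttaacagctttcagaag
Malat1: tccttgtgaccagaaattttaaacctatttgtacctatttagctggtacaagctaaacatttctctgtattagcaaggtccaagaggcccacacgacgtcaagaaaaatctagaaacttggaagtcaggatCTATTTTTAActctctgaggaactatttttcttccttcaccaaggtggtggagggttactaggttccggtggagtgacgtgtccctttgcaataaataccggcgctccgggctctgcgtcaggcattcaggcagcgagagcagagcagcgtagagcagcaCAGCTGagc
Dubr: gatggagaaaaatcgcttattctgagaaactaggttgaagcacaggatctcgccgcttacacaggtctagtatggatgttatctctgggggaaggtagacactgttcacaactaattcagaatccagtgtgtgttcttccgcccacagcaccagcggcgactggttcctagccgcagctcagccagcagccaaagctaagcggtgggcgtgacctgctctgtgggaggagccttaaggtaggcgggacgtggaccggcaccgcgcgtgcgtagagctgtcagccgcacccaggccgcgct

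With the first transcribed base counted as 1, the Lincmd1 promoter held the E-box at 16 and the MEF2 motif at -63, where it overlapped a TATAAA at -62. The Malat1 promoter held the E-box at 42 and the MEF2 motif at -119. Neither letter pattern was found in the Dubr promoter or in the 2 Gas5 promoters. Among 32851 RefSeq promoters of 300 bases, 16.3% held CAGCTG, 3.19% the MEF2 motif and 13.6% TATAAA. The CArG box, the site type of SRF, was in 1.63% of promoters and in none of these. Base composition also varied among the 5 promoters, with a GC content of 34.3% for Lincmd1, 47.0% for Malat1, 57.3% for Dubr and 73.7% and 62.0% for Gas5, beside a median of 52.7% over all promoters. A match is a description of the letters and not a measured binding site.

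The libraries held 13862559 to 14921057 reads in WT and 13175524 to 14502624 in mdx5cv. Values are normalized counts, which are reads divided by a size factor of each library. Dmd itself was 6169 to 8155 in WT and 3461 to 4400 in mdx5cv, lower in all 4 mutant muscles (log2 fold change -0.81, standard error 0.12, limma with Benjamini-Hochberg adjustment, adjusted p = 0.000177). After removal of genes averaging under 10 normalized counts, 40.9% of the remaining 13677 passed an adjusted p of 0.05, with 2854 (20.9%) higher and 2743 (20.1%) lower in mdx5cv. Scaling every library to the same total instead moved the median over all genes from 0.00 to 0.36 on the log2 scale and turned the split into 5524 higher and 815 lower, so 87.1% of calls were then higher rather than 51.0%. Of 1204 long noncoding RNA genes tested, 274 (22.8%) passed, and their median log2 fold change was 0.11.

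Gm28653 was close to absent in WT muscle and abundant in every mdx5cv muscle. Its normalized counts in WT replicates 1 to 4 were 6.88, 3.29, 2.21 and 5.30. In mdx5cv replicates 1 to 4 they were 349, 194, 190 and 579. The groups did not overlap, and the lowest mutant muscle was far above the highest WT muscle. The WT values rest on 16 reads in all and the mdx5cv values on 1519. The means were 4.42 ± 2.08 (SD, n = 4) and 328 ± 183 (SD, n = 4), and the log2 fold change on the scale of log2(normalized count + 1) was 5.85 with a standard error of 0.36. The ratio of the 2 means was 74.3. Among the 1204 long noncoding RNA genes tested it had the largest log2 fold change, and among all 13677 genes it ranked 7 from the top. By level per kilobase of merged exon, it ranked 1196 of the 1204 in WT and 68 in mdx5cv. Gm28653 passed the filter on the mean through its mdx5cv counts alone, so its low rank in WT follows in part from that filter. Because the WT level is so low, the fold change depends on the pseudocount and was 4.41 with a pseudocount of 10.

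Within the mdx5cv group, Gm28653 ranged from 190 to 579. By normalized count its order over the muscles was that of 2 of the 6 genes that mark regenerating fibers. Myog, the factor that starts terminal myoblast differentiation, was 401, 251, 221 and 754 in mdx5cv replicates 1 to 4. Mymk, the fusion protein myomaker, was 198, 115.1, 114.4 and 448. Both genes had replicate 4 highest, then 1, then 2, with 3 lowest, as Gm28653 did, although replicates 2 and 3 differed little for Mymk and Gm28653. As a share of all reads, Gm28653 was 0.00142% in replicate 2 and 0.00147% in replicate 3, so its order there depends on the scaling. Myh3, the embryonic myosin heavy chain, was 3346, 1279, 1820 and 5957, so replicate 2 was lowest, as it also was for Mymx, Chrng, Myh8 and the sum of the markers. Replicate 4 was highest for all 6. Over the mdx5cv muscles the ratio of Gm28653 to Myog stayed between 0.768 and 0.871, that to Mymk between 1.29 and 1.76, and that to Myh8, the perinatal myosin, between 0.254 and 0.566. The nearest profile over all 8 muscles, among 7640 genes with a mean of at least 100, was that of Myh3. Its root mean square difference was 0.372 on the log2 scale after each gene was centered on its own WT mean. Next were Itgax and Ctss, genes of myeloid cells, at 0.723 and 0.724.

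**Figure D1:**
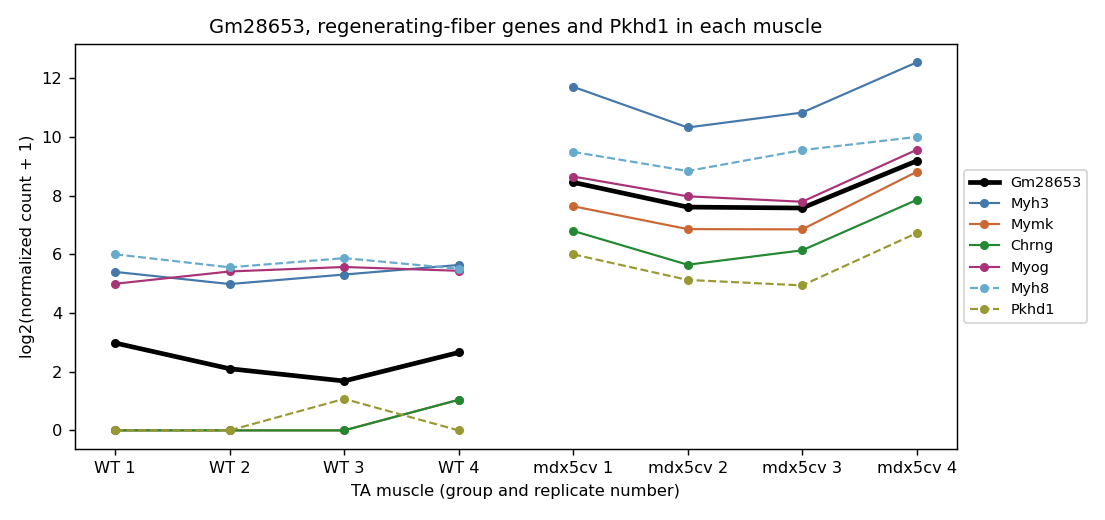
The vertical axis gives log2(normalized count + 1) and the horizontal axis the 8 TA muscles, with 1 line per gene. In the WT muscles the lines of Mymk and Chrng coincide, and in mdx5cv Gm28653 lies just below Myog, with replicate 4 highest and replicate 1 next for each gene except Myh8, where replicate 3 is second.

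All 6 markers of regenerating fibers rose in mdx5cv. Their summed normalized count was 118 to 143 in WT and 2175 to 8502 in mdx5cv, and Mymx was at 0 in every WT muscle. Mymk, Mymx and Chrng passed the filter on the mean through mdx5cv alone, so only a rise could be called for them. All 6 macrophage markers rose too (sum 364 to 593 in WT and 3540 to 8587 in mdx5cv), as did 5 of 6 fibroblast and fibro-adipogenic markers (5253 to 8003 and 18162 to 34169). Of the macrophage markers, Itgam also passed the filter through mdx5cv alone. Beside these counts, 20.9% of all genes tested were called higher and 20.1% lower. All 5 endothelial markers fell (2513 to 3045 and 1536 to 1968), but with equal totals 2 of the 5 calls were left, those of Pecam1 and Tek. On that scale 46.1% of all genes were called. Of 6 markers of mature fast fibers, Actn3 and Ckm fell and 4 did not pass, and Myh4, the fast IIb myosin, was 321431 to 516258 in WT and 299501 to 478937 in mdx5cv. With equal totals Ckm was still called lower, Actn3 was not called and Atp2a1 was called higher. The 5 lymphocyte markers were too low to test. In mdx5cv replicates 1 to 4 the macrophage sum was 4888, 3966, 3540 and 8587, the order of Gm28653 by normalized count. For Gm28653 the order of replicates 2 and 3 (206 and 211 reads) depends on the scaling. The regeneration sum was 4814, 2175, 3000 and 8502, with replicate 4 highest, replicate 1 next and replicate 2 lowest. The part of these cell types in any value of the 5 long noncoding RNAs was not tested.

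Almost no reads were counted on the small RNA genes that Gm28653 hosts. The libraries were made from total RNA with no step for small RNAs named, so these counts do not give the level of the mature microRNAs. Over the 8 muscles Mir206 had 2 reads, both in mdx5cv, and Mir133b had 0. Of the 11 genes listed as partners of Dum and linc-MD1, 7 could be tested, and 5 rose and none fell (71.4% called beside 40.9% of all genes, 20.9% of all genes being higher). Myog rose most (40.4 ± 6.62 in WT and 407 ± 245 in mdx5cv, log2 fold change 3.14, standard error 0.30, limma adjusted p = 7.61e-06). Myod1, the factor known to activate both RNAs, rose from 180 ± 42.1 to 490 ± 120 (SD, n = 4), with a log2 fold change of 1.44. Maml1, a Notch coactivator spared by linc-MD1 in myoblasts, rose by 0.47 on the log2 scale. Mef2c, the other mRNA known to be spared, was 8576 ± 614 in WT and 9024 ± 943 in mdx5cv and did not pass (0.07, standard error 0.12).

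Pkhd1, the protein-coding gene on the left of Gm28653, had a profile much like it. It lies on the opposite strand 51818 bp away at chr1:20057779-20618064 and encodes fibrocystin, a protein of kidney and liver cilia. In WT replicates 1 to 4 its normalized counts were 0, 0, 1.11 and 0, which is 1 read in all. In mdx5cv replicates 1 to 4 they were 63.0, 34.0, 29.7 and 105. By normalized count the order of the mutant muscles was that of Gm28653. Replicates 2 and 3 were close for both genes, with 36 and 33 reads for Pkhd1. The ratio of Gm28653 to Pkhd1 stayed between 5.53 and 6.39. The log2 fold change of 5.43 (standard error 0.48) depends on the pseudocount, since WT had 1 read. Pkhd1 passed the filter on the mean through its mdx5cv counts alone, so only a rise could be called and no p-value is given. Il17a, the protein-coding gene on the right at 46607 bp, had 0 reads.

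**Figure D2:**
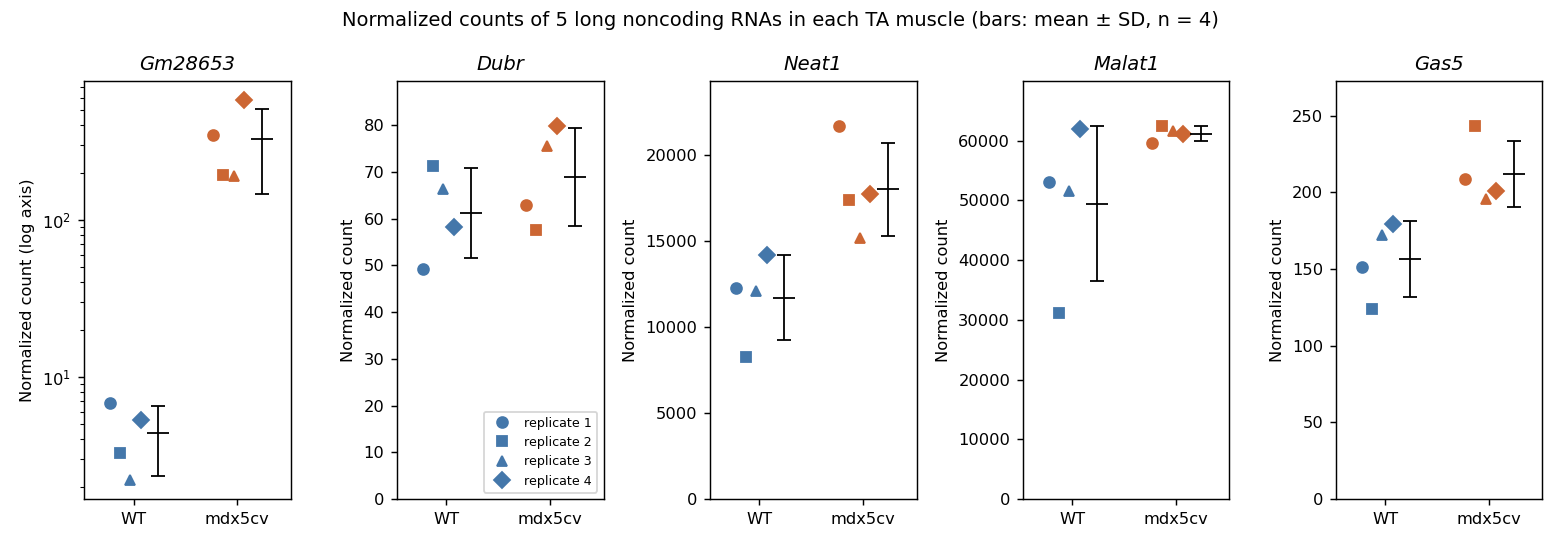
Each panel gives the normalized count of 1 long noncoding RNA in the 4 WT and 4 mdx5cv TA muscles, with the replicate number as the marker shape and the mean ± SD beside the points, on a log axis for Gm28653. The groups separate for Gm28653, Neat1 and Gas5 and overlap for Dubr and Malat1, and the 4 mdx5cv points of Malat1 lie between 59547 and 62493.

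Dubr (ENSMUSG00000022639, chr16:50719294-50732773, minus strand) was present at similar levels in both groups. Its normalized counts were 49.3, 71.3, 66.3 and 58.3 in WT replicates 1 to 4 and 63.0, 57.5, 75.6 and 79.9 in mdx5cv. The groups overlapped, with mdx5cv replicate 2 below 3 of the WT muscles. The means were 61.3 ± 9.64 and 69.0 ± 10.5 (SD, n = 4), a log2 fold change of 0.17 with a standard error of 0.17, within the spread between replicates. With equal totals it was 0.52, which is 0.16 above the median of all genes on that scale. Dppa2, the gene to which Dum is known to recruit DNA methyltransferases, had no reads in any muscle, and neither did Dppa4. Of the methyltransferases, Dnmt1 rose from 157 ± 15.2 to 285 ± 53.5 (log2 fold change 0.84, standard error 0.14, limma adjusted p = 0.000522) and Dnmt3a rose by 0.41, while Dnmt3b had a log2 fold change of 0.44 that did not pass.

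The region around Dubr was otherwise almost without reads. The genes next to it, Gm9575 at 52948 bp and 1700116B05Rik at 50636 bp, had 3 reads and 1 read over the 8 muscles. Ccdc54, the closest protein-coding gene on the left, had 0. On the right the closest is Cblb, an E3 ubiquitin ligase of immune and muscle signaling, at chr16:52031225-52208048 and 1298 kb away. In WT replicates 1 to 4 Cblb was 276, 363, 349 and 349 normalized counts, and it had 0 reads in all 4 mdx5cv muscles. Against a floor of 3 reads per library it was at least 125-fold lower in mdx5cv. Cblb passed the filter on the mean through its WT counts alone, so only a fall could be called and no p-value is given. Dubr on the same chromosome showed no such loss.

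Malat1 ranked first among the 1204 tested long noncoding RNA genes by level per kilobase in both groups, and Neat1 ranked 9 in WT and 4 in mdx5cv. By mean normalized count, without division by length, Neat1 ranked 2 in both groups. Per kilobase of merged exon, the mean normalized count in WT was 7084 for Malat1 and 564 for Neat1, and in mdx5cv it was 8763 and 868. Gas5 followed at 41.7 and 56.4 per kilobase and Dubr at 13.1 and 14.8, while Gm28653 went from 0.796, the lowest of the 5, to 59.1. In mdx5cv the per-kilobase range of Gm28653 over muscles was 34.2 to 104 and that of Gas5 52.0 to 64.7, so these neighbors in the order did not differ beyond their spread. Malat1 and Neat1 together made up 31.7% to 49.2% of all reads on long noncoding RNA genes in WT and 48.3% to 49.5% in mdx5cv. Long noncoding RNA genes as a whole took 0.762% to 1.06% of reads in WT and 1.19% to 1.47% in mdx5cv.

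Neat1 (ENSMUSG00000092274, chr19:5824708-5845478, minus strand) was higher in every mdx5cv muscle. In WT replicates 1 to 4 its normalized counts were 12276, 8283, 12085 and 14195. In mdx5cv they were 21726, 17397, 15204 and 17754. The groups did not overlap, although the highest WT muscle was close to the lowest mutant one. The means of 11710 ± 2475 and 18020 ± 2716 (SD, n = 4) gave a log2 fold change of 0.64 with a standard error of 0.17. It ranged from 0.48 without WT replicate 2 to 0.74. With equal totals it was 0.995, which is 0.63 above the median of all genes on that scale. The nearest profiles were those of Zfp142, Bcl7a and Plod1, at root mean square differences of 0.122, 0.123 and 0.132 over 8 muscles.

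Malat1 (ENSMUSG00000092341, chr19:5795690-5802672, minus strand) lies 22036 bp from Neat1 on the same strand. Its normalized counts were 53088, 31198, 51549 and 62028 in WT replicates 1 to 4. In mdx5cv they were 59547, 62493, 61572 and 61151. The groups overlapped, and the coefficient of variation was 26.3% in WT and 2.01% in mdx5cv. The means were 49466 ± 13025 and 61191 ± 1231 (SD, n = 4), a log2 fold change of 0.35 with a standard error of 0.21. Replicate 2 was the lowest WT muscle for Malat1, Neat1 and Gas5, and for Malat1 the log2 fold change was 0.14 without it. With equal totals the value was 0.71, which is 0.35 above the median of all genes on that scale. Pelp1, a nuclear coregulator, had the nearest profile at 0.0759, followed by Srrm1, a splicing coactivator of nuclear speckles, at 0.0900 and Gripap1 at 0.0933.

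The ratio of Neat1 to Malat1 reads does not depend on the scaling of a library. It was 0.231, 0.265, 0.234 and 0.229 in WT replicates 1 to 4 and 0.365, 0.278, 0.247 and 0.290 in mdx5cv. The groups overlapped, since mdx5cv replicate 3 was below WT replicate 2, and the means were 0.240 ± 0.0171 and 0.295 ± 0.04996 (SD, n = 4). Frmd8, the gene next to Neat1 on the same strand at 4224 bp, rose from 50.2 ± 7.58 to 92.3 ± 22.2 (log2 fold change 0.85, standard error 0.19, limma adjusted p = 0.00348). Frmd8os, 145 bp from Neat1 on the opposite strand, differed by -0.73 on the log2 scale (standard error 0.30) and did not pass at an adjusted p of 0.0708.

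Genes of the proteins in these nuclear bodies gave few calls, and their number depended on the scaling. Of 20 genes of paraspeckle proteins tested, 5 rose and none fell (25% called beside 40.9% of all genes, median 0.15). Hnrnpa1, a splicing regulator, rose from 243 ± 27.1 to 457 ± 42.3 (log2 fold change 0.91, standard error 0.12, limma adjusted p = 6.29e-05). Taf15, Rbm14 and Sfpq rose by 0.64, 0.50 and 0.27. Among the other core proteins, Nono had a log2 fold change of 0.13 and Pspc1 of -0.13, and neither passed. Of 22 nuclear speckle splicing factors, 2 rose and 1 fell (13.6% called beside 40.9% of all genes, median 0.07). Srsf4 rose by 0.61 and Srsf11 by 0.34, and Rnps1 fell by 0.35. The call of Rnps1 was lost with equal totals, where its log2 fold change was 0.01 beside a median of 0.36 over all genes. Son and Srrm2, the core of the speckle, had log2 fold changes of -0.01 and 0.35 and did not pass. With equal totals 14 paraspeckle proteins (70%) and 15 speckle factors (68.2%) were called, all of them higher, beside 46.1% of all genes, so that both shares turned from below to above that of all genes.

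Gas5 (ENSMUSG00000053332, chr1:161034422-161038539, plus strand) was moderately higher in mdx5cv. Its normalized counts were 151, 124, 172 and 179 in WT replicates 1 to 4 and 208, 243, 195 and 201 in mdx5cv. All mutant muscles were above all WT muscles. The means of 157 ± 24.8 and 212 ± 21.6 (SD, n = 4) gave a log2 fold change of 0.44 with a standard error of 0.14. With equal totals it was 0.80, which is 0.44 above the median of all genes on that scale. Zdhhc18 had the nearest profile, at 0.0728, and Ehmt2 was also among the nearest, at 0.0866. The 10 snoRNA genes annotated inside Gas5 had 0 reads over the 8 muscles, where a count of 0 allows up to 3, so values of the host transcript alone can be given.

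The start of Gas5 overlaps Zbtb37 by 428 bp on the opposite strand, and whether reads were counted by strand is not given in the sources used here. Zbtb37 went the other way (483 ± 8.37 in WT and 387 ± 9.11 in mdx5cv, log2 fold change -0.32, standard error 0.09, limma adjusted p = 0.0129). This call was lost with equal totals, where its log2 fold change was 0.04 beside a median of 0.36 over all genes. Of 15 other snoRNA host genes tested, 2 rose and 1 fell (20% called beside 40.9% of all genes, median 0.27). Snhg3 rose by 1.22, Snhg4 rose by 0.74 and Snhg6 fell by 0.67. With equal totals the fall of Snhg6 was lost and 5 genes of the list were higher, and the adjusted p of Snhg4 ranged from 0.00562 to 0.103 over the alternatives. Of 14 nonsense-mediated decay factors, Casc3 and Upf1 rose by 0.44 and 0.42 and Magoh fell by 0.46 (21.4% called beside 40.9% of all genes, median 0.01). None of these 3 calls was left when WT replicate 1 or 3 or mdx5cv replicate 3 was removed, and that of Magoh was also lost with equal totals, where 6 genes were higher.

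**Figure D3:**
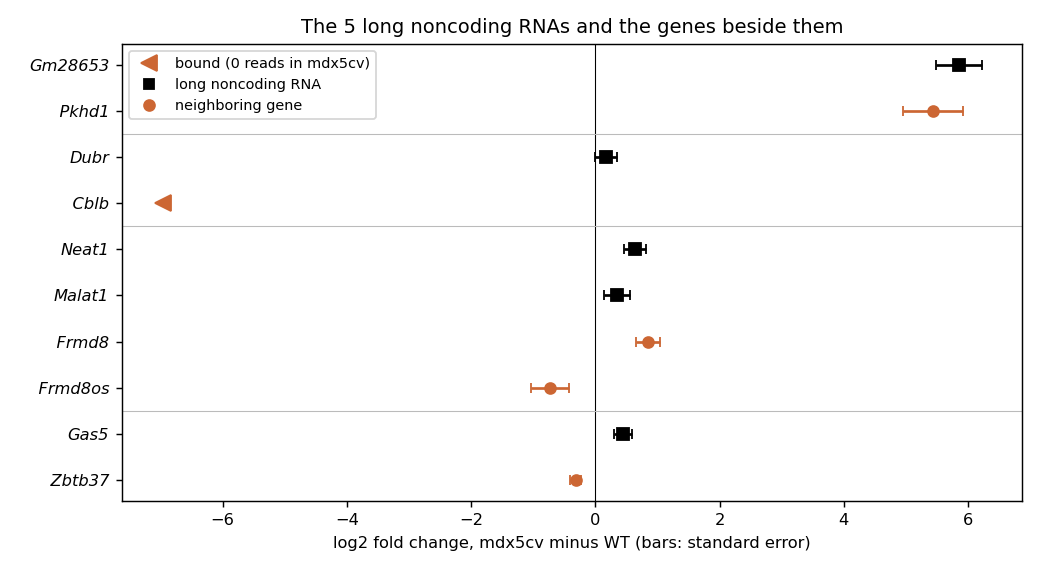
Points give the log2 fold change of mdx5cv minus WT and bars its standard error, for each long noncoding RNA (squares) and tested genes beside it (circles), and the triangle is the bound for Cblb, at least 125-fold lower. Gm28653 and Pkhd1 sit together at the right, at 5.85 and 5.43, while Gas5 at 0.44 sits opposite to Zbtb37 at -0.32.

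Of the 5 genes, Gm28653, Neat1 and Gas5 passed an adjusted p of 0.05 in the fit, all of them higher in mdx5cv, and the same genes had groups without overlap. For all genes tested the shares were 20.9% higher by that rule and 20.3% higher without overlap. Nothing is read from this count, because the contrast was used to pick the genes. Among the 5, only Gm28653 had a log2 fold change of at least 1, a size reached together with an adjusted p under 0.05 by 13.6% of all genes tested. The values under the alternative settings all stayed above 0 for the 5 genes.

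**Figure D4:**
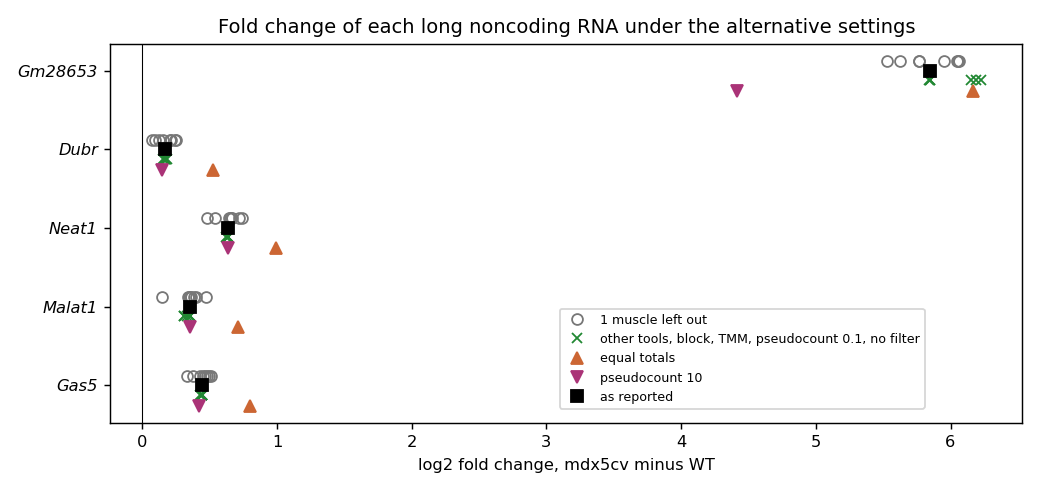
The horizontal axis is the log2 fold change of mdx5cv minus WT, with 1 row for each long noncoding RNA and 1 symbol for each setting. Equal totals shift Dubr, Neat1, Malat1 and Gas5 to the right, to 0.52, 0.995, 0.71 and 0.80, and a pseudocount of 10 lowers Gm28653 to 4.41. The median of all genes shifts too with equal totals, to 0.36.

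Other named long noncoding RNAs were called in both directions, mostly higher under equal totals. Of 30 listed, 25 could be tested, 9 rose and 6 fell (60% called beside 22.8% of long noncoding RNA genes, median 0.35), while with equal totals 15 were higher and 2 lower. The list was drawn up from well-studied genes with earlier results of these data known. Dnm3os, the host of the miR-199a and miR-214 cluster, rose most, from 34.0 ± 7.48 to 111 ± 35.0 (log2 fold change 1.66, standard error 0.23, limma adjusted p = 0.000104). H19, an imprinted RNA that hosts miR-675, rose from 1722 ± 510 to 4142 ± 435 (1.30, standard error 0.17, limma adjusted p = 6.93e-05). Of the imprinted Dlk1-Dio3 cluster, Meg3 and Mirg rose by 0.80 and 1.02, while Rian had a log2 fold change of 0.50 that did not pass.

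The largest fall was that of 2310065F04Rik, a long noncoding RNA at chr11:67112461-67120080 between Myh3 and Myh2 in the cluster of fast myosin genes. Its normalized counts were 1364, 876, 1472 and 1297 in WT replicates 1 to 4 and 275, 220, 325 and 184 in mdx5cv. Every mutant muscle was below every WT muscle. The log2 fold change was -2.32 (standard error 0.19, limma adjusted p = 2.22e-06). Firre, an X-linked nuclear RNA, fell from 217 ± 24.6 to 95.4 ± 13.3 (-1.18, standard error 0.14, limma adjusted p = 3.03e-05). Both falls held with equal totals, at -1.96 and -0.82. Sra1, an RNA coactivator of MyoD, fell by 0.64, a call lost with equal totals (adjusted p = 0.15, beside a range of 2.43e-05 to 0.15 over the alternatives).

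**Figure D5:**
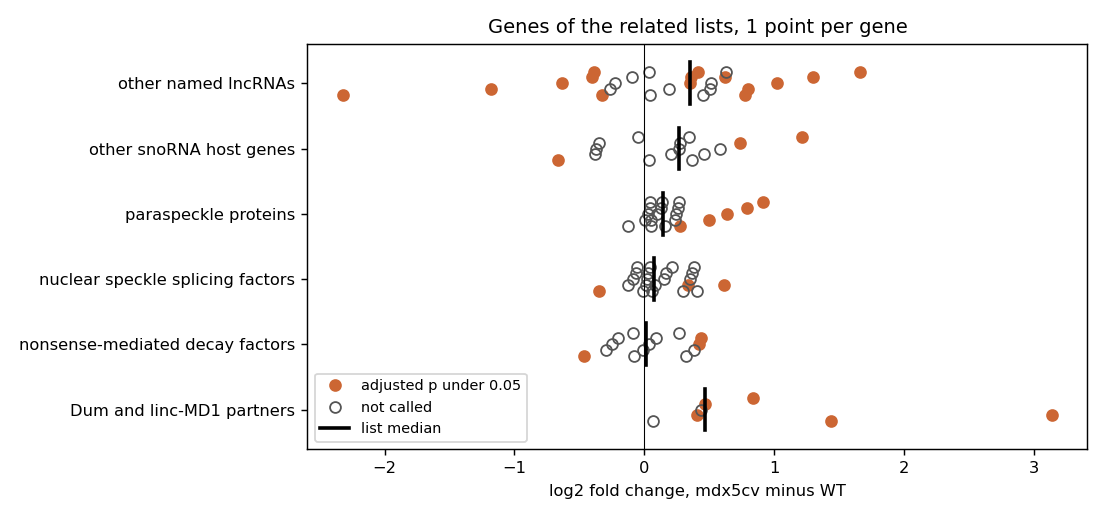
Each point is 1 tested gene of a list, placed by its log2 fold change of mdx5cv minus WT, filled where the adjusted p was under 0.05, and the bar is the list median. The medians run from 0.01 for nonsense-mediated decay factors to 0.47 for the Dum and linc-MD1 partners, where Myog lies farthest right at 3.14 and 2310065F04Rik lies farthest left at -2.32 in the top list.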

How the data were processed

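RNA was isolated with Trizol from whole tibialis anterior muscle, and libraries were made with a stranded total RNA kit. According to the submitters' processing notes, the tools named are Trim Galore 0.6.4, STAR 2.6.0c, SAMtools 1.9, featureCounts and DESeq2 1.26.0, with the mm10 build. The authors deposited 1 table of normalized counts (a signal of reads divided by a size factor), with 4 WT and 4 mdx5cv columns. Dividing each column by the value of 1 read gave whole reads for 100% of values (tolerance 0.01), and these reads were used for edgeR 4.0.16 and DESeq2 1.42.0 as alternatives. The annotation release and strand setting of the counting are not given in the sources used here. Loci come from GENCODE M21, which held 55141 of 55401 gene identifiers.

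The main test was limma 3.58.1 (R 4.3.3) on log2(normalized count + 1), with a trend and Benjamini-Hochberg adjustment, over genes with a mean of at least 10. Genes were called at an adjusted p under 0.05. The fold change on this scale understates the change of low genes. Other settings tried were pseudocounts of 0.1 and 10, all genes without the filter, TMM factors, equal totals, the replicate number as a block, each muscle left out, edgeR, DESeq2, and a minimum absolute log2 fold change of 1. On simulated counts of 12987 genes, 192 of them shifted by 2 on the log2 scale, limma recovered 100% of the shifted genes. It also called 12 unchanged genes, and smaller shifts were not simulated.

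The 5 genes and the lists were chosen with earlier results of these data known. Named were the 5 genes, members of the lists (of each, those with the 2 largest rises and 2 largest falls among calls), adjacent genes and the 3 nearest profiles of each. Reads of replicates differed by more than sampling noise (chi-square per degree of freedom 8.59 to 38.4), so each library counts once. Few reads limit the precision of Gm28653, Pkhd1, Mymk, Mymx and Chrng in WT, of Cblb in mdx5cv and of the small RNA genes. Intervals and floors cover counting error only. Some genes of the lists, of the loci and of the nearest profiles are not reported here.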

Additional observations from a re-analysis of the deposited data

Results flagged for a closer look

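By Dixon's criterion, the most extreme of the 4 muscles of a group was set against the other 3. The genes scanned were the 5 genes, the largest called rises and falls of the related lists, tested neighboring genes and nearest profiles. The ratio of Neat1 to Malat1 reads and the share of reads on long noncoding RNA genes were also scanned. Other named genes, among them Mymk and Chrng, were not. Of 94 such sets 6 exceeded the critical value, where chance gives about 1 in 20, or 4.7 sets. The ratio of Neat1 to Malat1 reads was highest of the WT muscles in replicate 2 (0.265, others 0.229 to 0.234). On the log2(normalized count + 1) scale, Pkhd1 was 1.07 in WT replicate 3 and 0 in the others, which is 1 read. Cblb was lowest in WT replicate 1 (8.11, others 8.45 to 8.51), and Snhg4 in WT replicate 4 (3.88, others 4.72 to 4.89). In mdx5cv replicate 2, Casc3 was lowest (7.38, others 7.67 to 7.72) and Ehmt2 highest (8.93, others 8.84 to 8.86).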

How the results depend on the processing

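All 16 alternatives kept the 5 log2 fold changes above 0. Equal totals moved Dubr to 0.52, Neat1 to 0.995, Malat1 to 0.71 and Gas5 to 0.80, and a pseudocount of 10 moved Gm28653 to 4.41. The median of all genes moved too with equal totals, to 0.36. Less that median the 4 values were 0.16, 0.63, 0.35 and 0.44. With 1 muscle left out the log2 fold changes ranged from 5.53 to 6.06 for Gm28653, 0.07 (without WT replicate 1) to 0.25 for Dubr, 0.48 to 0.74 for Neat1, 0.14 (without WT replicate 2) to 0.47 for Malat1 and 0.34 to 0.51 for Gas5.

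Called genes numbered 5597, with 5550 by edgeR, 5556 by DESeq2, 4609 to 5524 with 1 muscle left out, and 1861 at a minimum absolute log2 fold change of 1. With that minimum the lists fell from 15 to 5 (other named long noncoding RNAs), 3 to 1 (snoRNA hosts), 5 to 0 (paraspeckle), 3 to 0 (speckle), 3 to 0 (nonsense-mediated decay) and 5 to 2 (Dum and linc-MD1 partners), which follows from the stricter rule. Equal totals gave 5 snoRNA hosts, 14 paraspeckle, 15 speckle and 6 decay genes. With 1 muscle left out the lists held 9 to 14 (9 without WT replicate 1), 2 to 3, 3 to 8 (3 without WT replicate 2, mdx5cv replicate 1 or 4, and 8 without WT replicate 4), 2 to 5 (5 without WT replicate 4), 0 to 3 (0 if WT replicate 1 or 3 or mdx5cv replicate 3 is left out, and 1 without mdx5cv replicate 4) and 4 to 5, in that order. The cause was not tested.

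The replicate block gave 5616 genes and 5 speckle factors in place of 3. Deviations of same-numbered muscles correlated at 0.05, 0.03, 0.07 and 0.15, and those of differently numbered muscles at -0.15 to 0.07. Not every muscle correlated best with its own number, and correlations this small cannot decide whether same-numbered muscles share more than a number. At this depth a WT level of Gm28653 rests on 2 to 6 reads per library. The snoRNA and microRNA genes had almost no reads in these total RNA libraries and cannot be compared.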

Other observations

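Among long noncoding RNA genes outside the lists, with a mean of at least 100 and without overlap of the groups, Ifi30 had the second largest rise after Gm28653, from 38.3 ± 4.46 to 231 ± 97.9 (log2 fold change 2.49, standard error 0.23). GENCODE M21 classes it so, although Ifi30 is known as a lysosomal thiol reductase of antigen-presenting cells. Gm44386 had the largest fall outside the lists, from 178 ± 62.3 to 65.5 ± 16.1 (-1.38, standard error 0.25), and Gm12319 fell from 300 ± 41.6 to 141 ± 49.8 (-1.16, standard error 0.24).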
